A study of Mus musculus with 7 samples.

Results

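The genes described here are 8 regulators of the multiciliated cell fate, Gmnc, Mcidas, Ccno, Cdc20b, Deup1, Myb, Rfx2 and Rfx3. They were taken as a fixed list of symbols, and all 8 were found among 21887 protein-coding genes of the RefSeq annotation. The libraries came from globose basal cells, the dividing progenitors of the olfactory epithelium, of adult wild-type mice. Methimazole, which destroys this epithelium, had been given 7 to 10 days earlier, and cells bearing the receptor c-Kit were selected with magnetic beads. Chromatin immunoprecipitation and sequencing was done for H3K27me3, the repressive mark that Polycomb complexes place (2 libraries), and for H3K27ac, a mark of active promoters and enhancers (2 libraries). Each replicate was a pool of cells from 3 mice, and all libraries share the genotype and the lesion, so the marks are set beside each other and no treatment is compared.

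A multiciliated cell makes many motile cilia, each on its own basal body. In the airway, the brain ventricles and the oviduct, the geminin relatives Gmnc and Mcidas switch this programme on by working with E2F factors. Their targets include Myb and the genes that mass-produce centrioles around deuterosomes (Deup1, Ccno, Cdc20b). RFX factors, with Foxj1, then turn on the genes of the motile axoneme. Globose basal cells of the olfactory epithelium give rise to neurons and supporting cells, and motile cilia in the nose belong to the neighbouring respiratory epithelium.

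A mark was scored as present when both of its libraries had a peak in the window of the gene. Within the gene body and 10 kb on each side, 7 of the 8 regulators carried H3K27me3, against 53.8% of all protein-coding genes, and 8 of 8 carried H3K27ac, against 72.1%. These shares vary with gene length. In the tenth of genes by length that holds each regulator, H3K27me3 was at 50.7% (Ccno) to 77.9% (Rfx3). H3K27ac was there at 59.0% (Ccno) to 88.0% (Cdc20b and Deup1). The 7 genes with H3K27me3 also carried H3K27ac, a pair found at 43.6% of all genes. Rfx3 was the exception, with H3K27ac alone, a state found at 28.5%. These windows are wide, so peaks within 1 kb of a start listed in the RefSeq promoter table were counted as well. There 6 of the 8 regulators carried H3K27me3, against 24.8% of 17492 protein-coding genes with a listed start. H3K27ac was found at a listed start of 7 of the 8 regulators, against 61.4%, and both marks at one of 5, against 14.8%. Gmnc and Deup1 have 2 listed starts each, and a mark at either counted. Gmnc, Mcidas, Ccno, Cdc20b and Myb carried both. Deup1 carried H3K27me3 alone, as did 9.96% of all genes, and Rfx2 and Rfx3 carried H3K27ac alone, as did 46.6%. All 8 regulators carried at least 1 mark at a listed start, whereas 28.6% of all genes with a listed start had neither. With 2 libraries a mark and no second condition there was no test, and these counts describe the 4 libraries. Ccno and Mcidas lie so close together that their windows share peaks. The 110 peaks counted over the 8 gene windows were 98 distinct ones. Most of these peaks had a low −log10 q, the authors' measure of a peak's significance. When only peaks with a −log10 q of 5 or more were kept, H3K27me3 was at 0 of the 8 wide windows (6.44% of all genes) and H3K27ac at 2 (55.5%), those of Rfx2 and Rfx3. With 2 or more, both marks were at 4 windows (21.4%), those of Mcidas, Ccno, Cdc20b and Myb. At starts both marks were then at 3 (6.96%), those of Mcidas, Ccno and Myb, and with 5 or more at 0 (0.326%). When 500 bp had to be covered, both marks were at 3 starts (10.7%), those of Gmnc, Ccno and Myb.

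The strength of a peak is given by the authors' deposited fold enrichment over background, a linear ratio that ranks peaks within a list. Among the regulators with a peak at the start, fold enrichment ran from 3.09 to 8.11 in H3K27me3 replicate 1 (7 genes, median 5.08) and from 3.46 to 5.01 in replicate 2 (6 genes, median 3.70). Over all genes with such a peak the medians were 3.87 and 3.74. For H3K27ac it ran from 2.80 to 22.0 in replicate 1 (8 genes, median 4.49) and from 2.75 to 20.3 in replicate 2 (7 genes, median 3.84). The medians over all genes with such a peak were 8.97 and 7.07. Rfx3 alone lay above them, so 7 of 8 and 6 of 7 regulators had an H3K27ac peak weaker than that of the middle gene.

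**Figure D1:**
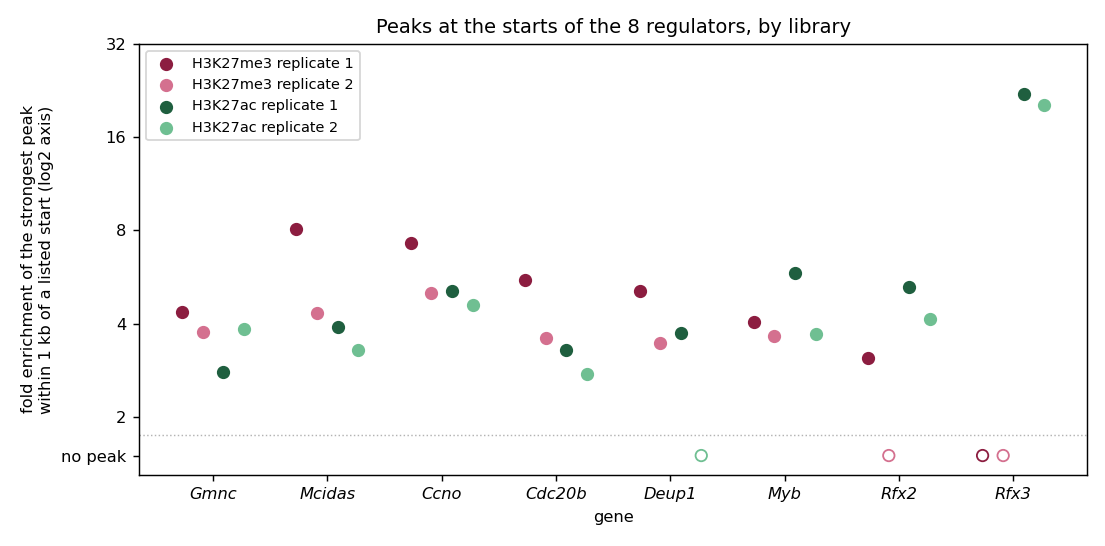
Fold enrichment of the strongest peak within 1 kb of a listed start (log2 axis) for the 8 regulators in each of the 4 libraries; open circles on the lowest line mark a library with no peak there. Mcidas and Ccno have the highest H3K27me3 points (8.11 and 7.29 in replicate 1), and Rfx3 stands apart with H3K27ac at 22.0 and 20.3 and no H3K27me3.

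Gmnc encodes GemC1, the most upstream regulator of the programme. Its gene (GRCm38, as for all positions here, chromosome 16, 26957235 to 26991675, minus strand, 34.4 kb) has 2 listed starts that lie 23.4 kb apart. The upstream start had no peak within 1 kb in any of the 4 libraries. All 4 libraries had a peak over the internal start. H3K27me3 stood at a fold enrichment of 4.37 and 3.77 there in replicates 1 and 2, in peaks of 816 and 1560 bp. H3K27ac stood at 2.80 and 3.84, in peaks of 627 and 559 bp. Within their own lists the H3K27me3 peaks were stronger than 85.6% and 82.4% of peaks, and the H3K27ac peaks than 7.53% and 65.8%. The bases covered in all 4 libraries formed 1 stretch of 559 bp, from 59 bp upstream to 499 bp downstream of the internal start. The other peaks of the Gmnc window, 1 in each H3K27me3 library, did not overlap each other.

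The sequences before both Gmnc starts are shown because the marks separate them. Each is the 250 bases upstream of the start, 5′ to 3′ on the strand of the gene, from RefSeq (GRCm38.p6), with CpG dinucleotides in capitals. They lie at chr16:26991653-26991902, minus strand, and at chr16:26968246-26968495, minus strand.
Gmnc, upstream start: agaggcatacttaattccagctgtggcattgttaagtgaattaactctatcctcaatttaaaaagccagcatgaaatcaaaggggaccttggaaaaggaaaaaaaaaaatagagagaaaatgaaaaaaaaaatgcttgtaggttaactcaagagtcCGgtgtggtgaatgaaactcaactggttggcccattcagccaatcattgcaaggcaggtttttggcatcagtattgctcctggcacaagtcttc
Gmnc, internal start: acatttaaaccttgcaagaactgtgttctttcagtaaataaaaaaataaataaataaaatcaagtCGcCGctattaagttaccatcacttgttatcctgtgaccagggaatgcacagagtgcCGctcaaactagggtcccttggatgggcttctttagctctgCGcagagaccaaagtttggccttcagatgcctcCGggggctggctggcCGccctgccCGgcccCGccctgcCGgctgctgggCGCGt
The upstream sequence holds 1 CpG and no base of it lay in a peak. The internal sequence holds 11 CpGs, most of them in its last part. H3K27me3 peaks covered its last 150 and 173 bases and H3K27ac peaks its last 106 and 59 bases in replicates 1 and 2. Over the whole 300-base entries, 50 bases past the start included, the counts were 2 and 14 CpGs, against a median of 13 over 21263 entries of protein-coding genes.

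Mcidas encodes multicilin, the second geminin relative, and Ccno encodes cyclin O, which multiciliated cells need to make enough centrioles. They are neighbours on chromosome 13, read from the same strand, with listed starts 6.07 kb apart (gene records: Ccno 112987802 to 112990778, Mcidas 112993581 to 113000394). The listed start of Mcidas, at 112993868, lies inside its record. At the Mcidas start H3K27me3 stood at 8.11 and 4.34 in replicates 1 and 2 and H3K27ac at 3.90 and 3.28. At the Ccno start H3K27me3 stood at 7.29 and 5.01 and H3K27ac at 5.08 and 4.61. At both genes each H3K27me3 library thus had a high-ranking peak, stronger than 93.2% to 98.5% of its list, and each H3K27ac library a middling one, stronger than 42.0% to 79.0%.

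The broadest H3K27me3 peaks of the group lay here. Over the Ccno start they were 5033 and 6735 bp long and reached from 2.2 and 2.9 kb upstream to 2.8 and 3.8 kb downstream, past the Ccno gene end in replicate 2. Bases covered in both H3K27me3 libraries, merged across gaps of up to 3 kb, formed a span of 13.6 kb over Ccno and Mcidas, of which 8.59 kb were covered. In the window of each gene H3K27me3 took up a large share. It was 39.9% and 43.0% around Mcidas and 49.6% and 62.6% around Ccno in replicates 1 and 2, against medians over all gene windows of 2.12% and 0.766%. The 90th percentile over all windows was 25.9% and 21.5%. The windows of both genes overlap, so these shares are not independent.

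H3K27ac lay inside this span. In the windows of both genes, 100% of the bases with H3K27ac in both libraries also lay in H3K27me3 peaks of both libraries. They formed 3 stretches, of 1177 bp over the Ccno start, 256 bp just inside Mcidas (181 to 436 bp past its start) and 446 bp in its 3′ part. The cells were pooled, and the 2 marks were measured on separate libraries. The titles give H3K27me3 replicate 1 and H3K27ac replicate 2 a common input, but do not state which libraries came from a common pool. Marks on the same chromatin, marks in different cells of a pool and marks in different pools therefore cannot be told apart.

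The 250 bases before both starts are shown because H3K27me3 covers both wholly and H3K27ac only that of Ccno (RefSeq, GRCm38.p6, CpGs in capitals). They lie at chr13:112987552-112987801, plus strand, and at chr13:112993618-112993867, plus strand, the latter inside the Mcidas gene record.
Ccno: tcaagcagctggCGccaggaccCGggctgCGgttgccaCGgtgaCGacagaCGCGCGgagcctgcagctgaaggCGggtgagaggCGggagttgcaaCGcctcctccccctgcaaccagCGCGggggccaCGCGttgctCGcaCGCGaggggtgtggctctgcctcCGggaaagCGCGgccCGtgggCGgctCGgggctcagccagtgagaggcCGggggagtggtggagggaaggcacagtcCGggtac
Mcidas: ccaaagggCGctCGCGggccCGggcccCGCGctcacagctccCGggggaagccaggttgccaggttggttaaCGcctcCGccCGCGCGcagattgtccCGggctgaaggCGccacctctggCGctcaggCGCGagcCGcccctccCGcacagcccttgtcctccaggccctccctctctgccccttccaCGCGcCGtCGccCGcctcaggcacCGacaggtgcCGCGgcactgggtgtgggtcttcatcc
They hold 26 and 27 CpGs. All 250 bases lay in H3K27me3 peaks of both libraries at both genes. At Ccno all 250 also lay in H3K27ac peaks of both libraries, whereas at Mcidas 94 bases did in H3K27ac replicate 1 and 0 in replicate 2, whose peak began 181 bp past the start. The Ccno sequence holds GTTGCCACGGTGAC at positions -219 to -206 from the start. This matches a loose form of the X-box bound by RFX factors, GTNNCC and GNNAC with 3 free bases between them, which was searched for on both strands after the sequences had been seen. It occurs in 4.80% of the promoter entries of protein-coding genes, and in 3 of the 10 entries of the 8 regulators, 1 each of Ccno, Deup1 and Rfx2. Also searched for were GTTGCC (part of an X-box), TTCCCGC (E2F) and AACNGNC (MYB). These were in 5, 2 and 3 of the 10 entries, against 12.6%, 5.95% and 32.2% of entries of protein-coding genes. A match of letters does not show binding.

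**Figure D2:**
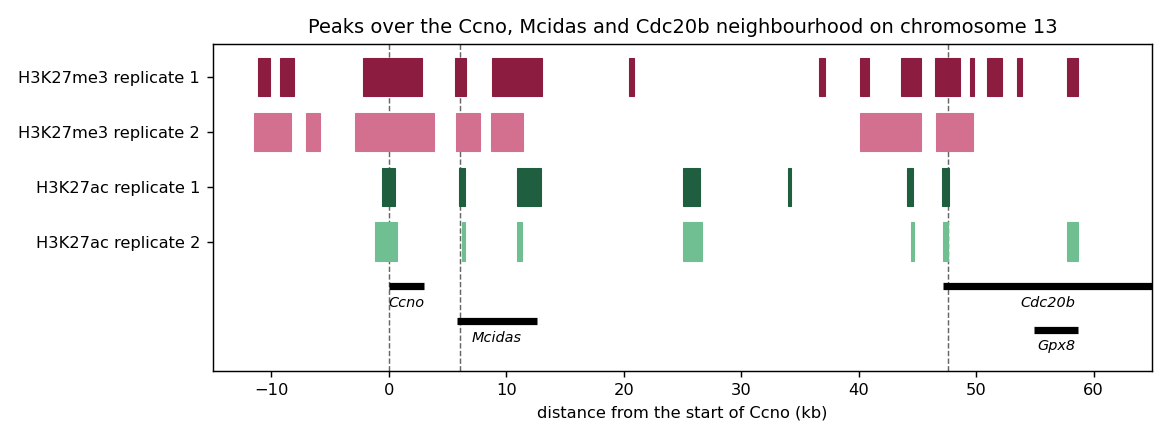
Peaks of each library (coloured blocks) over 80 kb of chromosome 13, by distance from the Ccno start in kb, with gene bodies as black bars and listed starts as dashed lines. H3K27me3 covers Ccno and Mcidas in broad blocks and returns around the Cdc20b start, and the H3K27ac blocks over the 3 starts are narrower.

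Cdc20b, a relative of the mitotic activator Cdc20 that takes part in deuterosome function, is a long gene (chromosome 13, 113034975 to 113121019, plus strand, 86.0 kb). Its listed start, at 113035379, lies inside this record and 41.5 kb downstream of that of Mcidas. At its start H3K27me3 stood at 5.53 and 3.59 in replicates 1 and 2 and H3K27ac at 3.30 and 2.75. The H3K27ac peak of replicate 2 was among the weakest of its list, stronger than 5.44% of peaks, with a −log10 q of 1.06 where the list begins just above 1. A second pair of peaks lay upstream of the start. H3K27me3 there stood at 6.70 in replicate 1, 2.2 to 3.9 kb upstream, and at 3.48 in replicate 2, 2.3 to 7.5 kb upstream. H3K27ac stood at 4.19 and 3.28, about 3 kb upstream. Merged as above, the stretch with H3K27me3 in both libraries spanned 9.62 kb around the start. No base more than 2.2 kb into the gene lay in H3K27me3 peaks of both libraries. Further H3K27ac peaks, 3 in replicate 1 and 2 in replicate 2, lay 61.2 to 65.7 kb into the gene over Gzma, a granzyme gene that sits inside Cdc20b. The last of them in each library (3.06 and 3.13) lay within 1 kb of the Gzma start, which carried H3K27ac alone. Position by itself does not assign these peaks to either gene.

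The 3 starts on chromosome 13 carried both marks, but the genes around them did not all do so. Dhx29, on the Ccno side, carried H3K27ac alone at its start (8.31 and 5.45), and is named after its values had been seen. Gpx8, inside Cdc20b, had 1 weak peak of each mark, in H3K27me3 replicate 1 (2.70) and in H3K27ac replicate 2 (2.84). Between Mcidas and Cdc20b, outside the windows of both, another stretch of H3K27ac in both libraries lay 25.0 to 26.7 kb from the Ccno start (3.45 and 4.39), with no H3K27me3 peak. It too was picked out after its values had been seen.

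The Cdc20b gene holds the microRNAs Mir449a, Mir449b and Mir449c, which share a seed with the Mir34 microRNAs and promote multiciliogenesis in frog and human airway cells. The mature sequences listed for them are shown because the seed, bases 2 to 8 in capitals, is the part that pairs with targets (RefSeq, GRCm38.p6).
mmu-miR-449a-5p: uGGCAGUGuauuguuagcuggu
mmu-miR-449c-5p: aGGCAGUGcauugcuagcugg
mmu-miR-34a-5p: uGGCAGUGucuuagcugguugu
mmu-miR-34b-5p: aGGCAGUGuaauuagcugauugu
All 4 have the seed GGCAGUG. The Mir449c hairpin begins 604 bp past the Cdc20b start and its 109 bases lay in the H3K27me3 peaks over that start in both libraries. Mir449b (80 bases) lay in H3K27me3 peaks of both libraries as well, at 3.22 and 3.59. Of the 91 bases of Mir449a, 91 lay in a peak of H3K27me3 replicate 1 and 13 in a peak of replicate 2. No H3K27ac peak covered a base of the 3 hairpins, although both H3K27ac libraries had a peak within 1 kb of Mir449c.

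Deup1 encodes the deuterosome scaffold protein, a relative of the centriole protein Cep63. Its gene (chromosome 9, 15559864 to 15628351, minus strand, 68.5 kb) has 2 listed starts, 460 bp apart. H3K27me3 stood at 5.08 and 3.46 in replicates 1 and 2, in peaks of 467 and 1117 bp over the downstream start. H3K27ac stood at 3.73 in replicate 1 and had no peak there in replicate 2. The H3K27ac that both libraries shared in the Deup1 window lay about 75 to 76 kb past the start, beyond the far end of the gene, at 3.47 and 4.16, so the gene counts as carrying both marks only in the wide window. The peaks at the Deup1 start also lie over 4930540M03Rik, a non-coding RNA gene that overlaps it. No base of the window was covered in all 4 libraries.

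The 250 bases before the downstream start, at chr9:15627847-15628096, minus strand, are shown because the H3K27me3 peaks of both libraries lie over it (RefSeq, GRCm38.p6, CpGs in capitals).
Deup1: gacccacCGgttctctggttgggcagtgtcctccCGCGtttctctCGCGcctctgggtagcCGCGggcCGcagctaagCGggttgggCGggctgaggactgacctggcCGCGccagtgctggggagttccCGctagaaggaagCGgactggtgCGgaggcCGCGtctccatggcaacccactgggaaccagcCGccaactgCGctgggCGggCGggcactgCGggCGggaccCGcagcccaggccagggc
It holds 24 CpGs, and all 250 bases lay in peaks of both H3K27me3 libraries and of H3K27ac replicate 1. The 250 bases before the upstream start hold 2 CpGs, and none of them lay in a peak. At Deup1, as at Gmnc, the start with more CpGs is the one under the peaks. The Deup1 starts are only 460 bp apart, though, and the same peaks lie within 1 kb of both. The marks within 1 kb thus separate the starts of Gmnc but not those of Deup1. These are the 2 genes with more than 1 listed start, compared after their sequences had been seen.

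Myb encodes a transcription factor of dividing progenitors that also acts early in multiciliated cells. Its gene (chromosome 10, 21124930 to 21160984, minus strand, 36.1 kb) had broad peaks of both marks over its start. H3K27me3 stood at 4.04 and 3.64 in replicates 1 and 2, and H3K27ac at 5.83 and 3.69. The H3K27me3 peaks were 3446 and 1878 bp long and the H3K27ac peaks 3271 and 3172 bp. All 4 libraries covered 1416 bp, at -438 to 977 bp from the start, the longest such stretch at any of the 8 genes. It made up 78.1% of the bases with H3K27me3 in both libraries and 48.5% of those with H3K27ac. The 300-base promoter entry of Myb has 40 CpGs, more than 94.9% of entries.

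**Figure D3:**
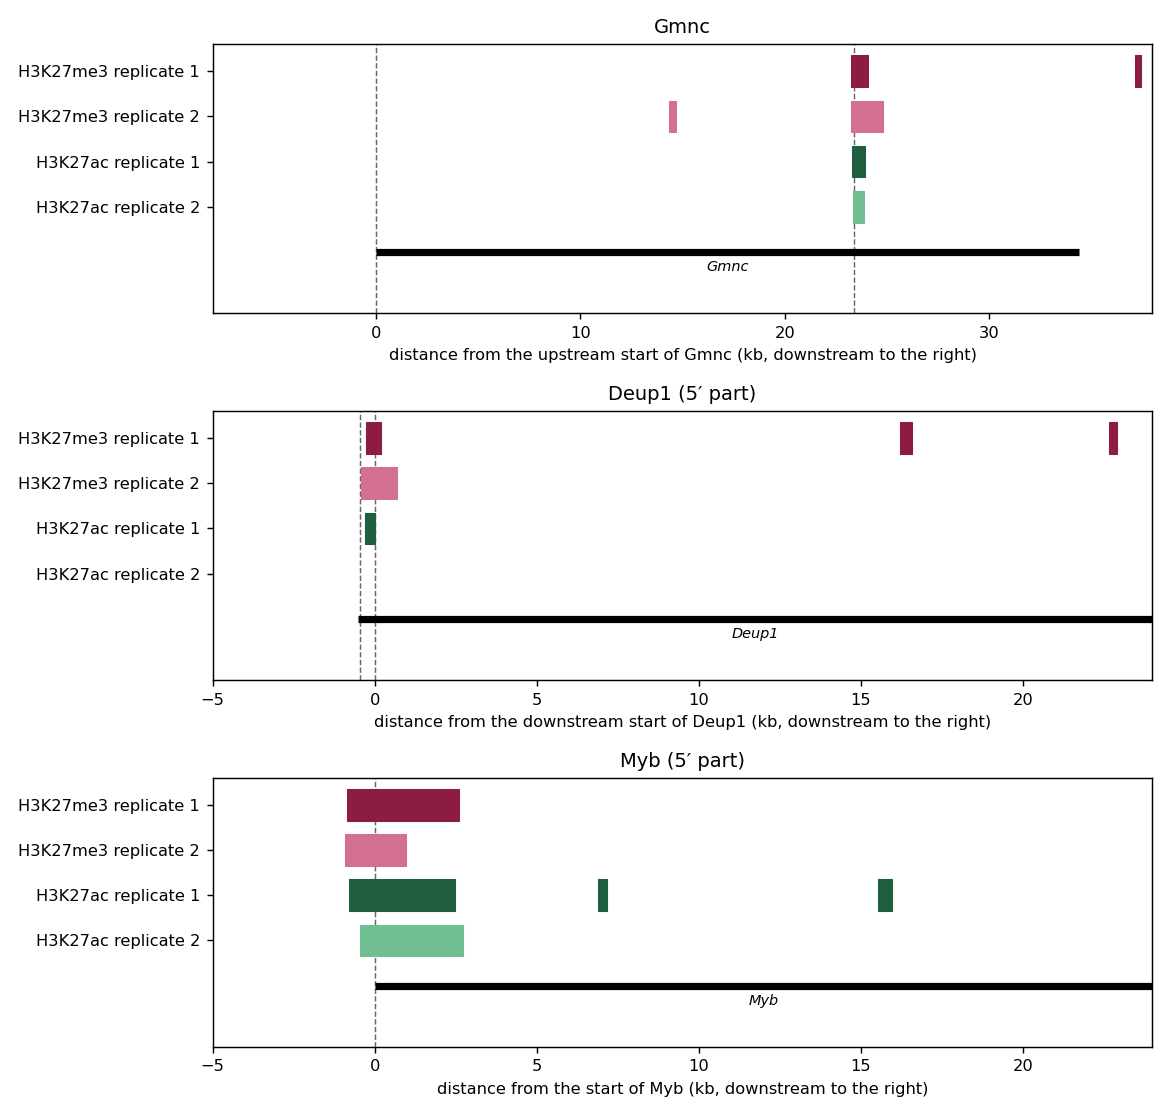
Peaks of each library (coloured blocks) over Gmnc and the 5′ parts of Deup1 and Myb, by distance from a start in kb with downstream to the right; black bars are gene bodies and dashed lines the listed starts. In Gmnc all 4 libraries meet at the internal start and none at the upstream one, in Deup1 H3K27ac replicate 2 has no peak at the start, and in Myb all 4 blocks are broad.

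Rfx2 and Rfx3 encode winged-helix factors that bind X-boxes of cilia genes. Neither carried H3K27me3 at its start in both libraries. Rfx2 (chromosome 17, 56775897 to 56831008, minus strand, 55.1 kb) had H3K27me3 in replicate 1 only at its start (3.09, stronger than 24.8% of peaks). The 2 H3K27me3 libraries differed over the whole window, with 10 peaks in replicate 1 against 2 in replicate 2, and they shared 501 bp, 6.7 to 7.2 kb upstream of the start. That shared piece is what makes Rfx2 a carrier of H3K27me3 in the wide window. Within the gene body and 2 kb on each side, it was not one. H3K27ac at the Rfx2 start stood at 5.24 and 4.14.

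Rfx2 had the most H3K27ac of the 8 genes by share of its window, with 26.0% and 20.9% of its window covered in replicates 1 and 2, against medians over all gene windows of 5.04% and 4.09%. Most of it lay inside the gene. A peak of 8897 bp in replicate 1 and one of 7730 bp in replicate 2 began 13.8 and 14.2 kb past the start and ended 22.7 and 21.9 kb past it, and each was longer than 99.0% of its list. Their fold enrichment, 5.85 and 4.96, exceeded that of the Rfx2 start in both libraries. Within the window, 2 peaks lie over the neighbouring gene Dus3l and 3 over Gm41604, a non-coding RNA gene inside Rfx2. No base of the window was covered in all 4 libraries.

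Rfx3 (chromosome 19, 27761721 to 28014669, minus strand, 253 kb) had no H3K27me3 peak in either library anywhere in its window of 272949 bp. Of the 2189 longest genes, Rfx3 among them, 77.9% carried H3K27me3 in such a window. H3K27ac at its listed start stood at 22.0 and 20.3 in replicates 1 and 2, with peaks of 3242 and 2542 bp and a −log10 q of 111 and 54.3. These peaks were stronger than 99.6% and 99.9% of the peaks of their lists. The listed start lies inside the gene record, and at the 5′ end of that record H3K27ac was not found within 1 kb in both libraries. Further H3K27ac shared by both libraries lay 15.9 to 18.6 kb into the gene, at 2.89 to 5.67. The 250 bases before the start, at chr19:28011167-28011416, minus strand, are shown as the H3K27ac-only member of the group (RefSeq, GRCm38.p6, CpGs in capitals).
Rfx3: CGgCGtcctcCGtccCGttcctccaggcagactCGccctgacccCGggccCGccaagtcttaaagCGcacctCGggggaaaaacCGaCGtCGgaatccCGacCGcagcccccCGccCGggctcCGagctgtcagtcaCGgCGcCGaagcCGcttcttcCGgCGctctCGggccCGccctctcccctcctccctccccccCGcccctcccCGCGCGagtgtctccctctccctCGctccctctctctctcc
It holds 30 CpGs, more than the Mcidas and Ccno sequences above, and all 250 bases lay in H3K27ac peaks of both libraries and none in an H3K27me3 peak. A CpG-rich start thus occurred with either arrangement of marks among these genes.

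**Figure D4:**
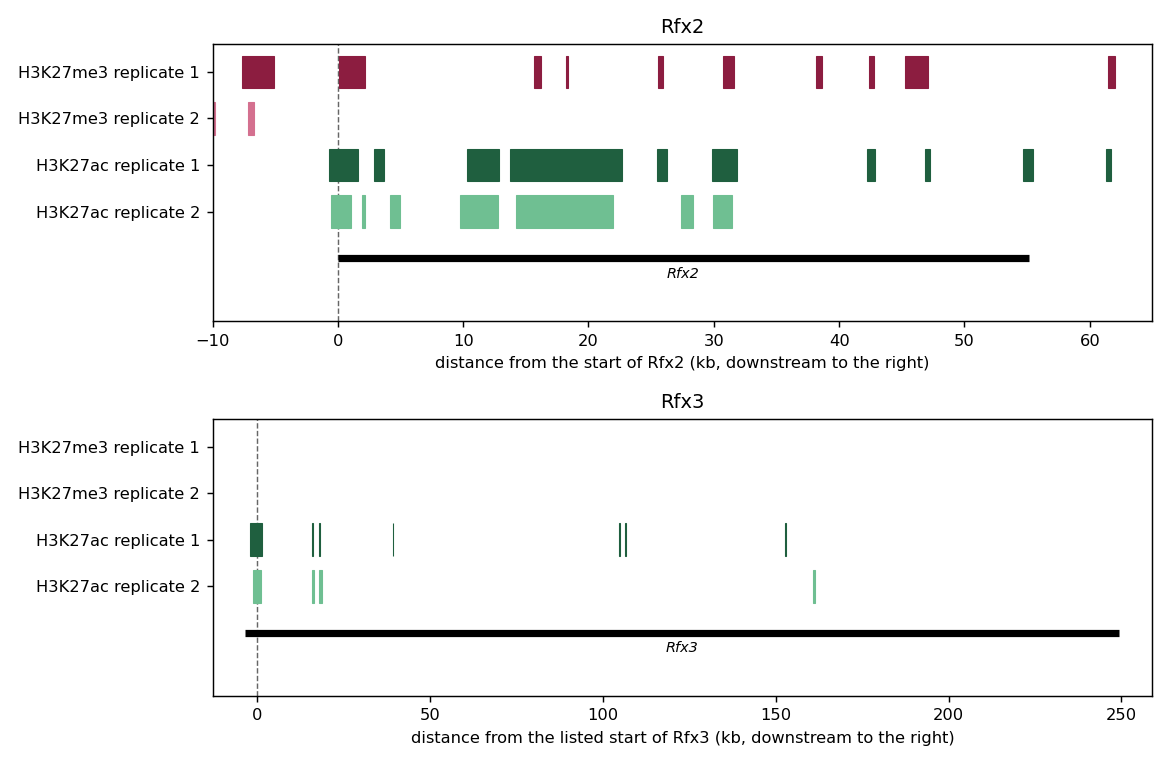
Peaks of each library (coloured blocks) over Rfx2 and Rfx3, by distance from the listed start in kb with downstream to the right; black bars are gene bodies. The long H3K27ac blocks inside Rfx2 (8897 and 7730 bp) and the absence of any H3K27me3 block over Rfx3 are the main features.

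Related genes were described from lists of the wider programme, with the same counting within 1 kb of a listed start. Of 18 genes of centriole duplication and amplification, 15 had a listed start, and 15 of 15 carried H3K27ac while 0 carried H3K27me3 in both libraries, although 3 had a peak in replicate 1. The shares over all genes with a listed start were 61.4% for H3K27ac and 24.8% for H3K27me3. The centriole genes include Plk4, the kinase that starts centriole duplication (10.3 and 8.49 for H3K27ac), and its scaffold Cep152 (6.45 and 4.88). Cep63, the relative of Deup1 that serves ordinary centriole duplication, stood at 13.2 and 9.67 for H3K27ac and had no H3K27me3 peak at its start, whereas Deup1 carried H3K27me3 there. Cep135, a centriole assembly protein, stood at 18.6 and 7.52. In the wide window 8 of the 18 centriole genes carried H3K27me3, against 53.8% of all genes.

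Of 11 partners and regulators of the programme, 7 had a listed start. Both marks were at 1, Trp73, an activator upstream of Foxj1, with H3K27me3 at 10.6 and 6.11 and H3K27ac at 2.93 and 3.10. H3K27me3 alone was at 2, Foxn4 (6.31 and 4.57, with H3K27ac at 3.08 in replicate 1 only), a multiciliated cell factor in frog, and Rfx4 (10.2 and 6.85). H3K27ac alone was at the other 4, Tfdp1, the dimer partner of E2F factors (16.0 and 7.80, with H3K27me3 at 2.86 in replicate 1 only), and Rfx1, Rfx5 and Rfx7. Over all genes with a listed start, 14.8% had both marks, 9.96% H3K27me3 alone and 46.6% H3K27ac alone. Of the RFX genes examined at starts (Rfx1 to Rfx5 and Rfx7), Rfx4 carried H3K27me3 in both libraries, and Rfx2 had it in replicate 1 only. Foxj1, the motile cilia regulator, had no listed start here and was added after the values had been seen. In its wide window H3K27me3 stood at 5.09 and 3.92 and H3K27ac at 5.23 and 5.13. E2f4, E2f5 and Gmnn, also without a listed start, carried H3K27ac alone in their wide windows, that of E2f4 with H3K27me3 in replicate 1 only (4.56). Of the 11 partners, 5 had both marks in the wide window and 6 had H3K27ac alone, against 43.6% and 28.5% of all genes.

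Of 20 motile axoneme genes, 18 had a listed start, and 9 carried H3K27me3 and 16 H3K27ac, with both marks at 9. Over all genes with a listed start the shares were 24.8%, 61.4% and 14.8% in that order. The H3K27me3 there was weak, with median fold enrichment of 3.49 in replicate 1 (14 genes with a peak) and 3.30 in replicate 2 (9 genes). Among the genes without both marks, the dynein heavy chain gene Dnah5 had no peak at its start. Dnah11, another dynein heavy chain gene, had H3K27me3 in replicate 1 only (5.63) with H3K27ac at 4.68 and 5.27. Dnai1, a dynein intermediate chain gene listed as Dnaic1, carried H3K27ac at 13.7 and 12.3 and H3K27me3 in replicate 1 only (2.75). Rsph9, a radial spoke gene, carried H3K27ac at 5.88 and 6.23 and H3K27me3 in replicate 1 only (3.50). Some of them are markers of respiratory multiciliated cells. Of 7 such markers 5 had a listed start, with H3K27me3 at 3 and H3K27ac at 4 of the 5.

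**Figure D5:**
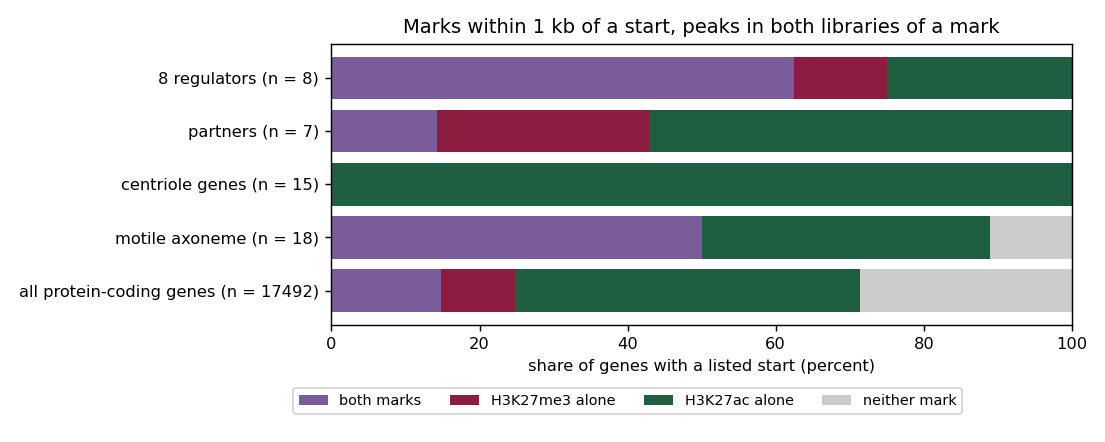
Share of genes with both marks, H3K27me3 alone, H3K27ac alone or neither within 1 kb of a listed start (percent), with peaks required in both libraries of a mark, for the 8 regulators, 3 lists of related genes and all protein-coding genes with a listed start. Both marks take up the largest part of the bar of the regulators (5 of 8) and H3K27ac alone fills that of the centriole genes (15 of 15).

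The selected cells were checked against marker genes in the same way. All 9 globose basal cell markers with a listed start carried H3K27ac, and 5 also carried H3K27me3, among them Kit (5.11 and 3.41 for H3K27me3, 6.80 and 4.39 for H3K27ac). H3K27ac was at 1 of 4 mast cell, 2 of 4 leukocyte, 3 of 4 sustentacular cell, 2 of 3 horizontal basal cell and 3 of 3 olfactory neuron markers, and H3K27me3 at 0, 1, 1, 3 and 1 of them. Over all genes with a listed start H3K27ac was at 61.4% and H3K27me3 at 24.8%, and lists of 3 or 4 genes cannot be set apart from these shares. The part of other cell types in the marks at the regulators was not tested. The 4 lists hold 64279 to 95749 peaks. Peaks with a −log10 q of 5 or more made up 2.34% to 5.89% of the H3K27me3 lists and 18.8% to 31.1% of the H3K27ac lists. Read depth is unknown, so where no peak was listed none passed the authors' threshold, which does not show that the mark is absent.

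The genes most like each regulator were found from the strongest fold enrichment at the start in the 4 libraries (distance on the log2 scale, 17492 genes). The nearest to Mcidas were Kcnh5 and Plcl1 (distances 0.095 and 0.133), to Ccno Rnf39 and Ank2 (0.101 and 0.124), to Cdc20b Chst7 and Pdzrn4 (0.110 and 0.154) and to Gmnc Prom2 and Pip5kl1 (0.183 and 0.238). Deup1 was nearest to Mogat1 and Fgf13 (0.086 and 0.092), Myb to Lix1l and Nckap5l (0.068 and 0.080), Rfx2 to Tmem160 and Lcn2 (0.040 and 0.041) and Rfx3 to Vcp and Rnf111 (0.040 and 0.044). With 4 values for each gene these are likenesses of level only. Kcnh5 for example stood at 7.88 and 4.52 for H3K27me3 and 3.74 and 3.32 for H3K27ac, close to the values of Mcidas.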

How the data were processed

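The 4 peak lists were made by the authors, 1 for each immunoprecipitated library, and no list of the 3 input libraries was used here. The submitters' processing notes name fastp, Bowtie, Picard and MACS2, and the build GRCm38 (mm10). Tool versions are not given in the sources used here. These lists are in the broad-peak layout of MACS2 with 9 columns. The authors deposited for each peak a fold enrichment (a linear ratio), a −log10 p and −log10 q, and a score, which is the −log10 q multiplied by 10 and truncated. The smallest −log10 q is just above 1 in each list. These values rank peaks within a list and also depend on its depth, which the files do not give.

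Gene positions (RefSeq, GRCm38.p6) came from a gene table and starts from a promoter table, which lists a start for 17492 (79.9%) of the protein-coding genes; the others entered the wide window only. A peak counted with at least 1 bp in the window, and where a gene has several starts both libraries had to meet at the same one. Bases covered in both libraries of a mark were found by intersection. All values were computed with Python 3.11.15 and pandas 2.3.3, and the overlap counts were tested on simulated data. No test was made. Each replicate is read as its own pool of 3 mice, although H3K27me3 replicate 1 and H3K27ac replicate 2 have a common input by title. The members and lists were chosen with earlier results of these data known. All 8 regulators are named. By rule, up to 4 genes of each list of related genes are given with values, first those that depart from its most frequent state, in list order, and the 2 most similar genes of each regulator, at least 100 kb away and without predicted genes. Rfx1, Rfx5, Rfx7, Foxj1, E2f4, E2f5, Gmnn and, among the cell type markers, Kit were named outside this rule. Alternatives changed the peak threshold, the window, the overlap and the libraries required.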

Additional observations from a re-analysis of the deposited data

How the results depend on the processing

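Of 60 recomputed counts of regulators, 51 stayed within 1.5 times the reported count. The strictest peak threshold moved each of the 6 counts. When only peaks with a −log10 q of 5 or more were kept, H3K27me3 was at 0 of 8 regulators in the wide window (6.44% of all genes) and at 0 starts (3.85%). H3K27ac was then at 2, Rfx2 and Rfx3 (55.5% of all genes), and at 1 start, that of Rfx3 (47.5%), and both marks were at 0 windows (2.36%) and 0 starts (0.326%). With 2 or more, both marks were at 4 of 8 in the wide window, Mcidas, Ccno, Cdc20b and Myb (21.4% of all genes), and at 3 starts, Mcidas, Ccno and Myb (6.96%). With at least 500 bp covered, both marks were at 3 starts, Gmnc, Ccno and Myb (10.7%). The thresholds on −log10 q leave fewer peaks by construction, most of all in H3K27me3 replicate 2, where no peak in the windows of the regulators passed 5. Without replicate 1 or 2 of each mark, the counts in the wide window were 7 to 7 for H3K27me3, 8 to 8 for H3K27ac and 7 to 7 for both, and at starts 6 to 7 for H3K27me3, 7 to 8 for H3K27ac and 5 to 7 for both. The alternatives for both marks at starts were added after seeing the data. The requirement that both libraries cover the same base, added after seeing the data, kept all 6 counts. With the 5′ end of the gene record in place of the listed start, also added later, H3K27me3 was at 5 starts (without Gmnc) and H3K27ac at 5 (without Gmnc and Rfx3), with both marks at 4. No paired analysis was possible because the counts come from no test, and the titles give a common input to H3K27me3 replicate 1 and H3K27ac replicate 2. Depth is unknown, so weak peaks such as H3K27ac at Cdc20b and Gmnc are the least secure.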

Other observations

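The Mir34 genes, which share the seed of the Mir449 microRNAs inside Cdc20b, did not have one common state. The Mir34b hairpin on chromosome 9 (51103562 to 51103645) lay wholly in peaks of all 4 libraries, with H3K27me3 at 6.92 and 4.51 and H3K27ac at 5.52 and 3.61 in replicates 1 and 2. Mir34c, its neighbour (51103034 to 51103110), lay in an H3K27me3 peak of replicate 2 (4.51), had one within 1 kb in replicate 1 (7.06), and lay in no H3K27ac peak, although both libraries had one within 1 kb. Mir34a on chromosome 4 had no H3K27me3 peak within 1 kb and an H3K27ac peak there in replicate 2 only (2.75). Mir34b thus had both marks over its hairpin, and the Mir449 hairpins only H3K27me3, which in replicate 2 reached 13 of the 91 bases of Mir449a. Both H3K27ac libraries had a peak within 1 kb of Mir449c (3.30 and 2.75).

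On the far side of Cdc20b, Gzmk, a granzyme gene 50611 bp away, had no peak at its start. Esm1, an endothelial gene 88640 bp away, had H3K27me3 alone, at 5.18 and 4.46. Both were named after their values had been seen.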
